A study of Arabidopsis thaliana with 15 samples.

Results

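The plastid genome of Arabidopsis thaliana encodes core subunits of every complex of the photosynthetic electron transport chain. Here, 35 plastid genes were followed: the psa and psb genes of photosystems I and II, the pet genes of the cytochrome b6f complex, the atp genes of the ATP synthase, rbcL, and ycf3, ycf4 and ccsA, whose products help to build these complexes. They were chosen by gene name and not by any measured value. The deposited tables hold 32733 genes, of which 132 lie on the plastid genome, and the 35 genes had counts in all 15 libraries. By complex, 14 genes belong to photosystem II, 5 to photosystem I, 6 to cytochrome b6f, 6 to the ATP synthase and 1 to Rubisco, and 3 are assembly and maturation genes.

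Photosystem II oxidises water and photosystem I reduces ferredoxin, and the cytochrome b6f complex passes electrons between them and moves protons into the thylakoid lumen. The ATP synthase uses that proton gradient, and Rubisco, whose large subunit is the product of rbcL, fixes carbon dioxide. The plastid genes are transcribed by a bacterial-type plastid RNA polymerase and by nuclear phage-type polymerases, mostly as polycistronic transcripts, and much of their RNA level in mature leaves is set by RNA stability.

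The samples were rosettes of pgn (T-DNA insertion in AT1G56570), mef37-1 (T-DNA insertion in AT5G08305), at3g50420 and at5g10690 (T-DNA insertions in the genes of those names) and the wild type Col-0, with 3 libraries of each line that carry the replicate numbers 1 to 3. The genes disrupted are PPR genes, a family of organelle RNA-binding proteins, and each line stands for a single insertion allele. All plants grew untreated under 16 h of light and 8 h of dark; their age is given as 25.5 days except in at5g10690, where libraries 1 and 2 have a growth stage and library 3 a planting and a harvest date instead. The series description speaks of 1 biological replicate, so whether the 3 libraries of a line come from separate plants is not settled, and the p-values measure the spread between these libraries, which may be technical.

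The libraries held 19555274 to 30901304 counts, and plastid genes took 59.1% to 65.0% of them. RNA had been depleted of ribosomal RNA, and the plastid rRNA genes held at most 0.00151% of the plastid counts. All 5 leaf markers (RBCS1A, LHCB1.1, LHCB1.3, GLDP1 and CA1) had counts in every library, and the 4 floral markers (AG, AP3, PI and SEP3) had 0 to 4 counts each. The targeted gene was low in pgn (9, 6 and 16 counts of AT1G56570, against 23, 36 and 22 in Col-0) and in at5g10690 (1, 3 and 4 counts of AT5G10690, against 318, 319 and 201 in Col-0). It was not low in the libraries labelled mef37-1 (17, 20 and 12 counts of AT5G08305, against 8, 8 and 21 in Col-0) or in the libraries labelled at3g50420 (10, 11 and 13 counts of AT3G50420, against 11, 16 and 14 in Col-0). A number after a line below names the library with that replicate number. The TMM factor, which scales a library for its composition, was lowest in at3g50420 number 1 (0.777) and highest in at5g10690 number 3 (1.297).

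The 35 genes fall into 16 transcription units, 9 of which hold more than 1 of them. Some neighbours overlap or nearly touch, which limits how reads can be assigned to either gene, since reads that touch more than 1 gene were not counted. The stretches below are shown because the counts of these neighbouring genes depend on them; they are read from the RefSeq copy of the plastid genome, whose length of 154478 bases and gene positions match those of the deposited tables (start and end for 34 of the 35 genes, 1 end for ycf3). Capitals mark the bases inside both genes for psbD with psbC (Pt:33700-33792, plus strand) and for atpB with atpE (Pt:52640-52683, minus strand), and the bases between the genes for psbE with psbF (Pt:64042-64090, minus strand) and for psbF with psbL (Pt:63901-63961, minus strand).
psbD-psbC overlap: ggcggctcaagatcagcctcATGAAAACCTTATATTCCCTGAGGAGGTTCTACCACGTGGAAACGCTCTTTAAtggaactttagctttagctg
atpB-atpE overlap: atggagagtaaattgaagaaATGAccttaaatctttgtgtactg
psbE-psbF gap: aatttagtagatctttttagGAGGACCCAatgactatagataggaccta
psbF-psbL gap: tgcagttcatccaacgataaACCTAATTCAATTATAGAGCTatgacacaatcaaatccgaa
The overlap of psbD and psbC is 53 bases long and holds the start codon of psbC; that of atpB and atpE is 4 bases long, the start codon of atpE together with the stop codon of atpB. The gap is 9 bases between psbE and psbF and 21 bases between psbF and psbL, each shorter than a read of 75 nt. In all, 11 of the 35 genes overlap a gene of the same strand or lie within 75 bases of one, so a read that starts in one of them can reach the other and be lost to both. 

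Upstream of the most abundant transcripts, psbA and rbcL, lie pairs of boxes of the kind that the bacterial-type plastid polymerase recognises. They are shown because these 2 genes carry most of the plastid counts; capitals mark the boxes (psbA, Pt:1520-1569, minus strand, boxes 115 to 86 bases before the start codon; rbcL, Pt:54735-54784, plus strand, boxes 213 to 184 bases before it).
psbA upstream: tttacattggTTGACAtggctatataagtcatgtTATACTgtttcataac
rbcL upstream: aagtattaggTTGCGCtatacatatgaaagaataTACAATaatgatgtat
The exact pair TTGACA, 18 bases and TATACT, searched on both strands of the 250 bases before the start codon, was present before 1 of the 85 protein-coding plastid genes (1.18%), psbA itself. The pair TTGCGC, 18 bases and TACAAT was likewise present only before rbcL (1 of 85, 1.18%). A match of letters is a description and not evidence of a site in use.

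The 35 genes took 92.1% to 96.3% of the counts on plastid genes and 55.4% to 62.6% of all counts of a library. Among them psbA (ATCG00020), which encodes the D1 reaction-centre protein of photosystem II, held 42.3% to 57.5% of the plastid counts, and rbcL (ATCG00490) held 16.7% to 26.6%. The photosystem I genes held 4.94% to 11.6%, the ATP synthase genes 2.40% to 4.56%, the cytochrome b6f genes 2.01% to 2.97% and the assembly and maturation genes 0.144% to 0.366%. Without psbA in either sum, the remaining genes still took 85.7% to 91.7% of the plastid counts.

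Levels of different genes were compared per length, as RPKM, the count scaled to the exon length and to the total count of the library. On that scale psbA averaged 279544 ± 30062 and rbcL 95604 ± 12094 (SD, n = 15), and the other 33 genes lay between 432 and 22379 RPKM. Above 10000 RPKM on average were 12 of the 35 genes, among them the short genes psbJ (ATCG00550), psbT (ATCG00690), psbL (ATCG00560) and psbE (ATCG00580), which encode small photosystem II subunits. When 74 bases were added to each length, for the reads that overlap a gene only in part, 9 genes lay above that level. Levels of short genes therefore depend on how length is counted, as 17 of the 35 genes are shorter than 300 bases.

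In photosystem I the highest level was that of psaJ (ATCG00630), a small subunit, with 21650 ± 4724 RPKM. In number 1 to 3 it had 20178, 19533 and 28565 RPKM in pgn, 17522, 18021 and 20588 in the libraries labelled mef37-1, 29570, 19934 and 28695 in the libraries labelled at3g50420, 20500, 18704 and 21107 in at5g10690, and 14671, 18838 and 28317 in Col-0. Before TMM scaling number 3 was the highest library in pgn, mef37-1, at5g10690 and Col-0, and number 1 in at3g50420. After division by the TMM factor number 3 lay below number 2 in 1 line and below number 1 in 2 lines. The reaction-centre genes psaA (ATCG00350) and psaB (ATCG00340) averaged 9095 ± 1888 and 9766 ± 2064 RPKM, and psaC (ATCG01060), which carries the terminal iron-sulfur clusters, 9650 ± 1136 RPKM.

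In the cytochrome b6f complex petN (ATCG00210), a small subunit gene with a unit of its own, had the highest level with 13670 ± 1789 RPKM. In number 1 to 3 it had 13119, 13081 and 15757 RPKM in pgn, 11902, 12251 and 13396 in the libraries labelled mef37-1, 17343, 12322 and 15283 in the libraries labelled at3g50420, 14350, 12244 and 13410 in at5g10690, and 11848, 12160 and 16589 in Col-0. Before TMM scaling number 3 was highest in pgn, mef37-1 and Col-0, and number 1 in at3g50420 and at5g10690. After division by the TMM factor number 3 lay below number 2 in 3 lines and below number 1 in 3 lines. The gene of cytochrome f, petA (ATCG00540), lay lowest in this complex at 1599 ± 347 RPKM, and petB (ATCG00720) and petD (ATCG00730), for cytochrome b6 and subunit IV, stood at 10001 ± 1012 and 11801 ± 1052 RPKM.

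Among the ATP synthase genes atpH (ATCG00140), for the subunit of the membrane ring, was highest with 17837 ± 1748 RPKM. It had 17837, 20240 and 17448 RPKM in pgn, 17470, 18728 and 19775 in the libraries labelled mef37-1, 17422, 20090 and 18509 in the libraries labelled at3g50420, 16671, 18138 and 14430 in at5g10690, and 16871, 19299 and 14620 in Col-0. Before TMM scaling number 2 was highest in every line but mef37-1, where number 3 was. After division by the TMM factor the order differed: number 3 lay below number 2 in 5 of 5 lines, and number 2 below number 1 in 1 line. The other 5 genes of the complex averaged 3003 to 6865 RPKM, lowest in atpI (ATCG00150) and highest in atpF (ATCG00130), both in the same transcription unit as atpH.

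The assembly and maturation genes lay at the low end. ycf4 (ATCG00520), whose product acts in photosystem I assembly, had 1323 ± 384 RPKM, ycf3 (ATCG00360), another photosystem I assembly factor, 1304 ± 170, and ccsA (ATCG01040), which acts in the attachment of haem to c-type cytochromes, 432 ± 76.0. ycf4 varied most of all 35 genes over the 15 libraries, with a coefficient of variation of 29.0% and a highest library (1932 RPKM, at3g50420 number 2) 3.51 times the lowest (551 RPKM, at3g50420 number 1). The coefficient of variation exceeded 20% in 7 genes and was under 10% in 5, and psbF (ATCG00570), for a cytochrome b559 subunit, varied least at 7.37%. The lowest count of any of the 35 genes in any library was 7139, that of ccsA.

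**Figure D1:**
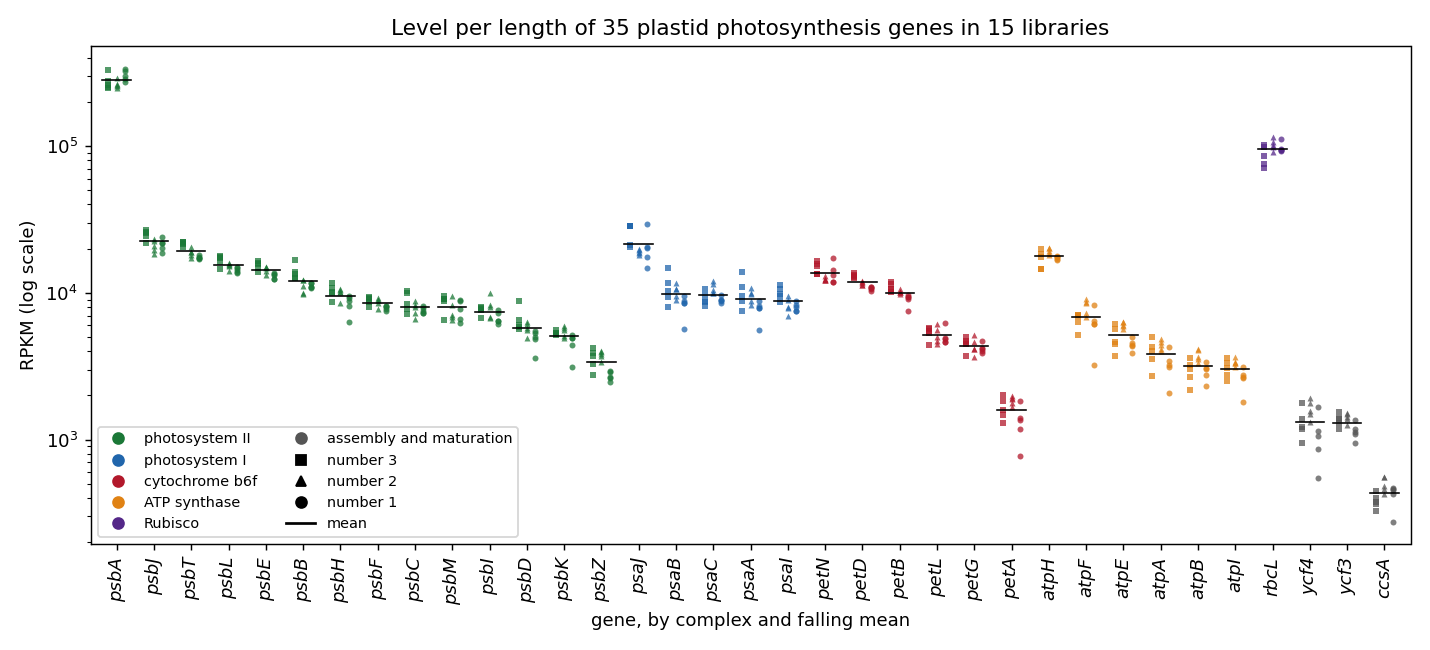
RPKM (log axis) of the 35 plastid photosynthesis genes in each of the 15 libraries, grouped by complex (colour) and in falling order of the mean within a complex; the marker shape gives the replicate number and the black bar the mean over 15 libraries. psbA (279544 RPKM on average) and rbcL (95604) stand above all other genes, and ccsA (432) lies lowest.

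Do the insertion lines differ from Col-0 in these transcripts? Each line was compared with Col-0 over all genes that passed edgeR's filter on low counts, with edgeR's quasi-likelihood test and a Benjamini-Hochberg adjusted p under 0.05 as the threshold. In pgn, in the libraries labelled mef37-1, in the libraries labelled at3g50420 and in at5g10690, 0 of the 35 genes were called, while over all genes 0% were called in pgn (0 of 17521), 0.00569% in mef37-1 (1 of 17561), 0% in at3g50420 (0 of 17599) and 0.0114% in at5g10690 (2 of 17602). None of the 35 had an unadjusted p under 0.05 in any of these 4 fits, and DESeq2 likewise called 0 of the 35 genes in each line. The 4 comparisons share the 3 Col-0 libraries, so their values are not independent of each other. Log2 fold changes lay above 0 in 35 of the 35 genes in pgn and in at3g50420, and in 32 in mef37-1 and in at5g10690. The genes named below were picked by their fold change, so agreement of their pairs of libraries is no separate support. How many of the 35 genes, or of all genes, were higher in 3 of 3 pairs was not counted.

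In pgn the log2 fold changes of the 35 genes ranged from 0.03 to 0.40, with a median of 0.17, beside a median of -0.01 over all genes tested, and their standard errors ranged from 0.18 to 0.44. The highest was ycf4, which on the RPKM scale divided by the TMM factor (normalized RPKM) had 1322, 1904 and 1026 in pgn, against 977, 1386 and 835 in Col-0. Its log2 fold change was 0.40 (SE 0.31, adjusted p = 1.00, edgeR). The libraries of the 2 lines overlap, but within each number pgn lay above Col-0 (3 of 3 pairs), and a fit that pairs libraries by number (replicate block) gave a log2 fold change of 0.39 (SE 0.11, unadjusted p = 0.0113, adjusted p = 0.703, edgeR). petG (ATCG00600), a small cytochrome b6f subunit gene, had 4896, 5551 and 4129 normalized RPKM in pgn, against 3846, 3832 and 3930 in Col-0. These libraries do not overlap, and the log2 fold change was 0.32 (SE 0.20, adjusted p = 1.00, edgeR). Of the 35 genes, 2 lay wholly above Col-0 in pgn, 1 in mef37-1, 3 in at3g50420 and 0 in at5g10690, and 0 wholly below in any line. With 3 libraries against 3 such a separation also arises by chance, and its share over all genes was not counted. The lowest were atpB (ATCG00480), for the beta subunit of the ATP synthase, at 0.03 and psbB (ATCG00680), for the core antenna protein CP47, at 0.07.

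In the libraries labelled mef37-1 the log2 fold changes ranged from -0.06 to 0.51 with a median of 0.14 (all genes, -0.02) and standard errors of 0.16 to 0.34. ycf4 was again at the top, with 1646, 1591 and 1329 normalized RPKM in mef37-1, against 977, 1386 and 835 in Col-0, and a log2 fold change of 0.51 (SE 0.24, adjusted p = 1.00, edgeR). Its lowest mef37-1 library lay below the highest Col-0 library, but within each number mef37-1 lay above Col-0 (3 of 3 pairs), and with the replicate block the log2 fold change was 0.54 (SE 0.21, unadjusted p = 0.0405, adjusted p = 0.978, edgeR). atpI, for the membrane subunit a of the ATP synthase, had 3054, 3541 and 3470 normalized RPKM in mef37-1, against 2471, 3317 and 2180 in Col-0, a log2 fold change of 0.34 (SE 0.23; 0.36 with SE 0.24 under the block) with overlapping libraries and mef37-1 higher in 3 of 3 pairs. The lowest were psbM (ATCG00220), for a small photosystem II subunit, at -0.06 and psaJ at -0.05.

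In the libraries labelled at3g50420 the log2 fold changes ranged from 0.02 to 0.55 with a median of 0.20 (all genes, -0.01) and standard errors of 0.20 to 0.44. psaJ stood highest, with 38047, 20724 and 26155 normalized RPKM in at3g50420, against 13648, 19879 and 24776 in Col-0, a log2 fold change of 0.55 (SE 0.35, adjusted p = 0.987, edgeR). The level of number 1 was the highest of psaJ in any library, and that of Col-0 number 1 was the lowest. psaC had 11489, 12600 and 8812 normalized RPKM in at3g50420, against 7908, 10550 and 7065 in Col-0, a log2 fold change of 0.37 (SE 0.29; 0.37 with SE 0.22 under the block) with overlapping libraries and at3g50420 higher in 3 of 3 pairs. psaB at 0.02 and psbD (ATCG00270), for the D2 reaction-centre protein, at 0.03 were lowest.

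In at5g10690 the log2 fold changes ranged from -0.17 to 0.35 with a median of 0.11 (all genes, 0.00) and standard errors of 0.26 to 0.49. The genes of the photosystem I reaction centre were highest: psaB had 9004, 12531 and 11363 normalized RPKM in at5g10690, against 7907, 11223 and 6957 in Col-0, and a log2 fold change of 0.35 (SE 0.37, adjusted p = 1.00, edgeR). psaA had 8252, 11570 and 10620 in at5g10690, against 7274, 10394 and 6604 in Col-0, and the same log2 fold change of 0.35 (SE 0.36); both genes overlap between the lines and were higher in at5g10690 in 3 of 3 pairs of the same number, with log2 fold changes of 0.37 (SE 0.30) for psaB and 0.36 (SE 0.29) for psaA under the block. psbM at -0.17 and psbA at -0.02 were lowest.

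**Figure D2:**
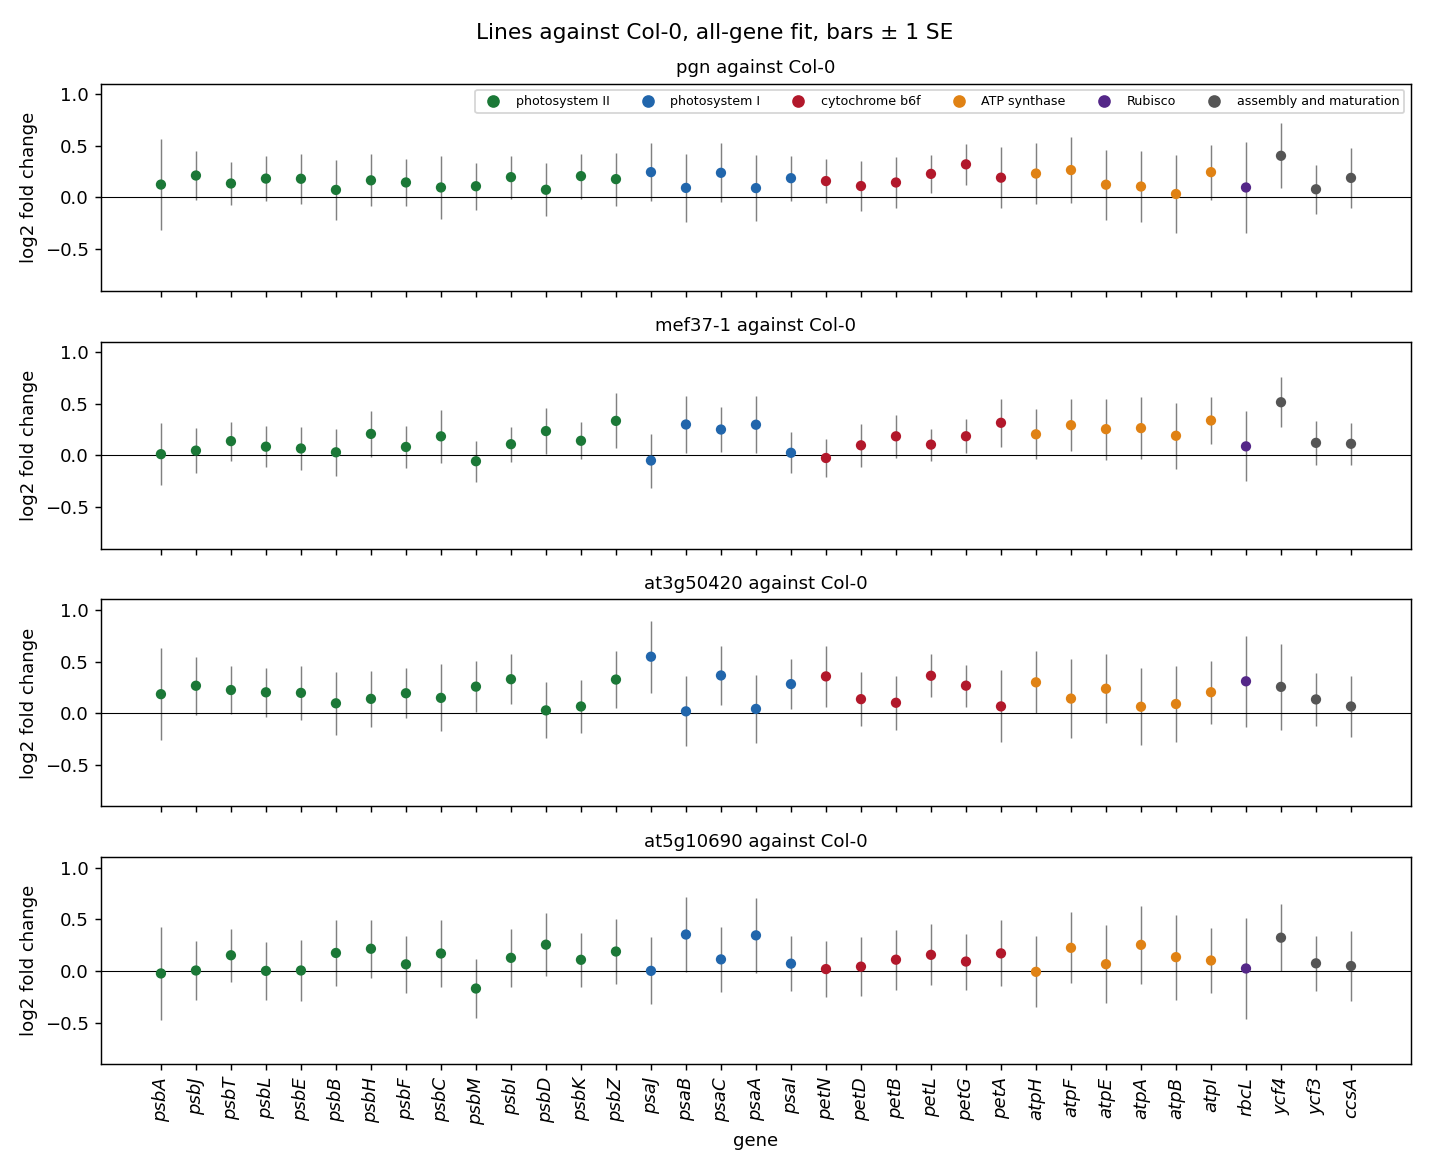
Log2 fold change of each of the 35 genes (x axis) in pgn, mef37-1, at3g50420 and at5g10690 against Col-0, from the fits over all genes. Bars are ± 1 SE, derived from the F statistic of the fit of 3 against 3 libraries, and colours give the complex. The values lie between -0.17 and 0.55 and 0 of the 35 genes passed the threshold in any line.

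Relative to the other plastid transcripts, the lines were compared again with plastid genes alone, with library size and TMM factors taken from these genes. In pgn and in mef37-1 0 of 121 plastid genes were called (0%), in at3g50420 and in at5g10690 0 of 123 (0%), and none of the 35 had an unadjusted p under 0.05. On this scale the median log2 fold change of the 35 genes was 0.00 in pgn, -0.10 in mef37-1, -0.04 in at3g50420 and -0.04 in at5g10690. Without TMM factors, as plain shares of the plastid counts, it was 0.07 in pgn, 0.06 in mef37-1, 0.04 in at3g50420 and 0.06 in at5g10690, again with 0 genes called, so the sign of these medians in the last 3 lines depended on the scaling. The share of plastid counts taken by the 35 genes was 94.1% ± 1.07 in pgn, 93.5% ± 0.162 in mef37-1, 94.1% ± 2.06 in at3g50420 and 93.8% ± 1.09 in at5g10690, against 94.2% ± 1.26 in Col-0 (SD, n = 3 each). The 2-sided exact permutation p of these differences was 0.9 for pgn, 0.5 for mef37-1, 1 for at3g50420 and 0.7 for at5g10690, in a design where the smallest p possible is 0.1.

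Between replicate numbers, the 5 libraries of one number, 1 from each line, were compared with the 5 of another in a fit over all 15 libraries that held line as a term. The labels do not say what the numbers stand for. Number 3 differed from the others over the whole transcriptome: 15.5% of the 17893 genes tested were higher and 17.4% lower in number 3 than in number 2. Other measures moved with this number: the summed level of the 5 leaf markers (6986 to 17662 CPM, counts scaled to the library total, in number 3, against 19437 to 23508 in number 2 and 16955 to 19209 in number 1) and the TMM factor (1.04 to 1.297 in number 3, against 0.933 to 0.962 in number 2 and 0.777 to 1.07 in number 1). Their part in the results below was not tested.

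Number 3 against number 2 gave the one set of calls among the 35 genes in the fits over all genes. Of the 35 genes, 0 were higher and 11 were lower in number 3, where 17.4% of all genes were lower. The 11 were 5 of the 6 atp genes, all 3 assembly and maturation genes, and psaC, petA and psbZ (ATCG00300). DESeq2 called 15 lower and 0 higher, where it called 3171 of 20670 genes lower and 2437 higher. The median log2 fold change of the 35 genes was -0.22, beside 0.03 over all genes tested. In bulk rosettes, fewer cells or plastids and less RNA per cell cannot be told apart. The scaling of the libraries matters as well: without the TMM factor, the 35 genes took 56.7% of all counts in number 3 and 57.3% in number 2. Its part in these calls was not tested.

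Of the ATP synthase genes, 5 of 6 were called lower, with log2 fold changes of the 6 from -0.64 to -0.43. atpB fell by 0.64 on the log2 scale (SE 0.17, adjusted p = 0.0115, edgeR), with 2337, 3469, 2921, 2339 and 1896 normalized RPKM in number 3 of pgn, mef37-1, at3g50420, at5g10690 and Col-0, against 3812, 3585, 3783, 4321 and 4336 in number 2 of the same lines. Every number 3 library lay below every number 2 library, with the smallest step in mef37-1. atpH had 15249, 19075, 16870, 11122 and 12792 normalized RPKM in number 3 of these lines, against 21698, 20039, 20887, 19351 and 20365 in number 2, again without overlap (log2 fold change -0.47, SE 0.15, adjusted p = 0.0317). atpE (ATCG00470), for the epsilon subunit, fell by 0.59, atpF, for the stalk subunit b, by 0.59 and atpI by 0.43. atpA (ATCG00120), for the alpha subunit, had a log2 fold change of -0.47 that missed the threshold (adjusted p = 0.0551).

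Of the assembly and maturation genes, 3 of 3 were called lower. ccsA had 329, 434, 362, 253 and 320 normalized RPKM in number 3 of pgn, mef37-1, at3g50420, at5g10690 and Col-0, against 596, 453, 577, 516 and 487 in number 2 (log2 fold change -0.64, SE 0.15, adjusted p = 0.00711, edgeR). It was the only one of the 35 genes with an adjusted p under 0.01. ycf4 had 1026, 1329, 1104, 1360 and 835 normalized RPKM in number 3, against 1904, 1591, 2008, 1671 and 1386 in number 2 (log2 fold change -0.62, SE 0.19, adjusted p = 0.0261). ycf3 had 1133, 1348, 1259, 1181 and 1036 in number 3, against 1481, 1339, 1583, 1511 and 1570 in number 2 (log2 fold change -0.33, SE 0.11, adjusted p = 0.0344). ycf3 was lower in 4 of the 5 lines, with mef37-1 the exception, and the other 10 genes called were lower in all 5. Of all 35 genes, called or not, 15 were lower in all 5 lines. Numbers 3 and 2 did not overlap in 10 of the 35, of which 8 were called. The calls come from these same libraries, so such agreement is no separate support, and its share over all genes was not counted.

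The photosystem and cytochrome b6f genes were spread around smaller values. The median log2 fold change was -0.17 for the 14 photosystem II genes (1 called), -0.21 for the 5 photosystem I genes (1 called) and -0.19 for the 6 cytochrome b6f genes (1 called). Within these complexes psaC fell by 0.51, petA by 0.46 and psbZ by 0.37. The highest values of the 35 genes belonged to psaJ, with 24965, 19860, 26155, 16268 and 24776 normalized RPKM in number 3 of pgn, mef37-1, at3g50420, at5g10690 and Col-0, against 20940, 19283, 20724, 19955 and 19879 in number 2 (log2 fold change 0.13, SE 0.20), and to psbB, with 12050, 12165, 12152, 12846 and 10988 in number 3, against 10511, 11946, 10407, 12992 and 12968 in number 2 (log2 fold change 0.03, SE 0.17). Both genes overlap between the numbers. rbcL had a log2 fold change of -0.53 (SE 0.25, adjusted p = 0.113) and psbA one of -0.22 (SE 0.26, adjusted p = 0.545).

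Genes of one transcription unit did not always share a value. psaA and psaB differed by 0.01 on the log2 scale, and atpB and atpE by 0.05. In the unit of psaI, ycf4 and petA, by contrast, the log2 fold change was 0.01 for psaI (ATCG00510) and -0.62 for ycf4, and in the unit of psbD, psbC and psbZ it was -0.09 for psbD, -0.12 for psbC and -0.37 for psbZ. These differences within units were not tested.

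The count of 11 rested on several libraries of numbers 2 and 3. It was 4 without pgn number 2, 4 without pgn number 3, 4 without at5g10690 number 2, 5 without at3g50420 number 2, 5 without Col-0 number 2, 5 without Col-0 number 3, 7 without at3g50420 number 3 and 7 without at5g10690 number 3. It was 11 or 12 without any 1 library of mef37-1. With a whole line left out it was 1 without pgn, 2 without Col-0, 5 without at3g50420, 5 without at5g10690 and 12 without mef37-1.

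Relative to the other plastid transcripts the calls went in the opposite direction. With plastid genes alone, 16 of the 35 genes were higher and 0 lower in number 3 than in number 2, where 14.6% of the 123 plastid genes tested were higher and 17.9% lower. Since 18 plastid genes were called higher in all, 16 of the 18 belonged to the 35. For each gene the value differed from that of the fit over all genes by nearly the same amount, 0.53 to 0.55 on the log2 scale, so the order of the genes was nearly unchanged and the zero point moved. The genes called higher were 9 psb genes, 4 of the 5 psa genes (all but psaC) and the pet genes petN, petD and petB. psaJ had a log2 fold change of 0.68 (SE 0.20, adjusted p = 0.0200, edgeR on plastid genes), psbB 0.58 (SE 0.12, adjusted p = 0.00422), psaI 0.55 and petN 0.53. The atp genes, with values from -0.09 to 0.12, and the assembly genes, with values from -0.09 to 0.21, were not called on this scale. rbcL stood at 0.01 (SE 0.14) and psbA at 0.32 (SE 0.18, adjusted p = 0.178).

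Without TMM factors, which leaves plain shares of the plastid counts, the median of all plastid genes moved to -0.27. Of the 35 genes 2, psaJ and psbB, were called higher and 0 lower, where 2 of the 123 plastid genes were higher and 29 lower. The median of the 35 genes was then 0.08. With single libraries left out, the count of 16 was 7 without pgn number 2, 7 without pgn number 3, 7 without at3g50420 number 2, 7 without Col-0 number 2, 8 without at5g10690 number 2 and 10 without Col-0 number 3, and 12 to 18 without each of the other libraries. The direction of the calls in number 3 therefore depended on the scale. Single genes could keep their sign. ccsA had log2 fold changes of -0.64 over all genes and -0.09 with plastid genes alone, and psaJ had 0.13 and 0.68.

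**Figure D3:**
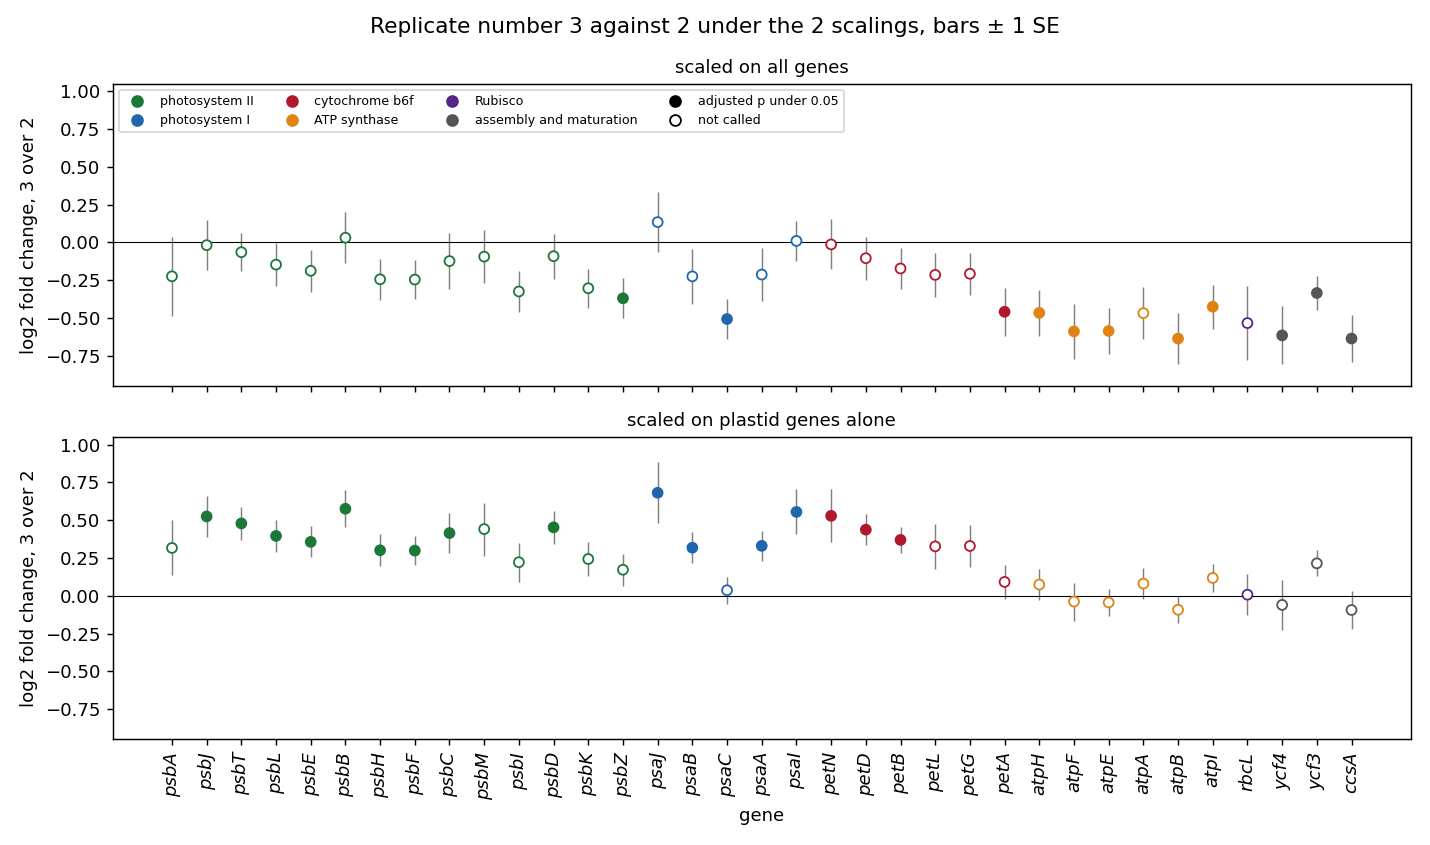
Log2 fold change of each of the 35 genes in replicate number 3 over replicate number 2, from 5 libraries of each with line as a term; bars are ± 1 SE and filled points passed the adjusted p threshold of 0.05. Scaled on all genes (top), 11 genes were lower in number 3; scaled on plastid genes alone (bottom), 16 were higher, with every value shifted up by 0.53 to 0.55.

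Other plastid genes were lower in number 3 as well in the fit over all genes. In number 3 against number 2, 63 of 88 other plastid genes were lower and 0 higher, with a median log2 fold change of -0.74. Of the ndh genes, for the plastid NADH dehydrogenase-like complex, 10 of 12 were lower (median -0.55), of the rpo genes, for the plastid RNA polymerase, 4 of 4 (median -0.96), and of the plastid ribosomal protein genes 19 of 25 (median -0.68). Nuclear genes for the same complexes were also lower in number 3: 11 of 12 photosystem I genes (median -0.69), 9 of 11 photosystem II genes (median -0.79), 2 of 2 cytochrome b6f genes (median -0.77), 3 of 3 ATP synthase genes (median -0.82) and 4 of 4 genes of the Rubisco small subunit (median -1.61), of which RBCS1A is also among the leaf markers. For Rubisco the values were -0.53 for rbcL, which was not called, and -1.48 to -1.71 for the small subunit genes, all of which were. These lists were chosen with earlier results of the data known, and the difference between them and the 35 genes was not tested. 

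**Figure D4:**
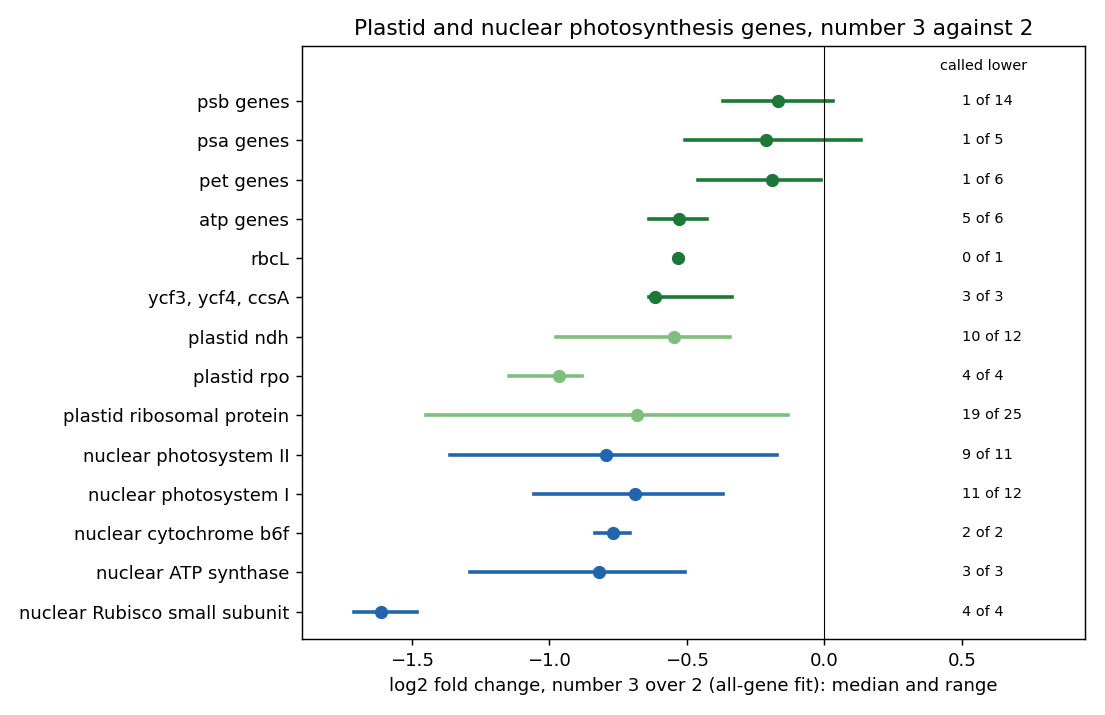
Log2 fold change of replicate number 3 over 2 in the fit over all genes, for the 35 genes by complex (dark green), other plastid genes (light green) and nuclear photosynthesis genes (blue); points are medians, lines run from the lowest to the highest gene, and the text gives how many genes were called lower. Of the atp genes 5 of 6 and of the assembly genes 3 of 3 were called lower, rbcL stands at -0.53 without a call, and the nuclear Rubisco small subunit genes are lowest (median -1.61).

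Number 3 against number 1 gave no call among the 35 genes in the fit over all genes: 0 were higher and 0 lower, where 15.7% of all genes were higher and 18.2% lower. The median log2 fold change was -0.07 (all genes, 0.01). In edgeR 1 of the 35 genes had an unadjusted p under 0.05, where 7930 of all 17893 genes had one. DESeq2 called 5 lower (psbA, rbcL, atpH, ccsA and psaC), where it called 3425 of 20670 genes lower. Without mef37-1 number 3 the fit called 3 lower, and without at3g50420 number 1 it called 1. rbcL was lowest, with 74224, 98523, 90380, 57984 and 61737 normalized RPKM in number 3 of pgn, mef37-1, at3g50420, at5g10690 and Col-0, against 107529, 92232, 143702, 101400 and 88022 in number 1 (log2 fold change -0.48, SE 0.24, adjusted p = 0.149, edgeR). psbA had 240348, 243717, 225948, 199370 and 287755 in number 3, against 374276, 266108, 433242, 315590 and 264745 in number 1 (log2 fold change -0.46, SE 0.26, adjusted p = 0.198). Both overlap between the numbers. The highest were psbD at 0.13 and psaA at 0.10. With plastid genes alone, 0 of the 35 were called, where 2.44% of the plastid genes were higher and 8.13% lower. There 6 of the 35 had an unadjusted p under 0.05 (edgeR), where 35 of the 123 plastid genes had one. psbD came nearest to the threshold (log2 fold change 0.36, SE 0.11, adjusted p = 0.05004, edgeR). The count without TMM factors was 7 higher, where 11 of the 123 plastid genes were higher and 10 lower. With TMM factors and a single library left out, it was 3 without pgn number 1, mef37-1 number 2 or mef37-1 number 3. It was 2 without pgn number 2 or Col-0 number 3, and 1 without at3g50420 number 1 or Col-0 number 2.

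Number 2 against number 1 gave 0 calls among the 35 genes as well, where 0.699% of all genes were higher and 1.78% lower. The median log2 fold change was 0.16 (all genes, 0.01). ycf4, petA, psbZ and 5 of the 6 atp genes (all but atpH) stood highest. In edgeR 8 of the 35 genes had an unadjusted p under 0.05, where 3745 of all 17893 genes had one. DESeq2 called 7 higher (atpA, atpE, atpI, psbZ, petA, ycf3 and ycf4), where it called 384 of 19214 genes higher. ycf4 had 1904, 1591, 2008, 1671 and 1386 normalized RPKM in number 2 of pgn, mef37-1, at3g50420, at5g10690 and Col-0, against 1322, 1646, 709, 917 and 977 in number 1 (log2 fold change 0.65, SE 0.19, adjusted p = 0.0788, edgeR). It was higher in 4 of 5 lines. petA had 2063, 1779, 2065, 2003 and 1863 in number 2, against 1589, 1801, 1001, 1242 and 1303 in number 1 (log2 fold change 0.52, SE 0.16, adjusted p = 0.0879). psbA at -0.23 and petN at -0.16 were lowest. With plastid genes alone, 0 of 35 were called where 0% of the plastid genes were higher and 0% lower. Of the 35 genes 11 had an unadjusted p under 0.05 (edgeR), where 30 of the 123 plastid genes had one. Without mef37-1 number 2 this fit called 2 lower.

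As a share of the plastid counts, the 35 genes took 94.2% ± 0.833 in number 3, 92.9% ± 0.4999 in number 2 and 94.8% ± 1.06 in number 1 (SD, n = 5 each). The means differed by up to 1.87 percentage points, and an exact permutation of the numbers within lines (7776 arrangements) gave p = 0.0355. The share was higher in number 3 than in number 2 in 5 of 5 lines, and lower in number 2 than in number 1 in 4 of 5. With pgn left out the exact permutation p was 0.139, without at3g50420 0.153 and without at5g10690 0.0833. Against all counts of a library the shares were 56.7% in number 3, 57.3% in number 2 and 58.8% in number 1, and the exact permutation p was 0.366.

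By complex, 7 shares were tested with the same exact permutation test and adjusted over the 7. The cytochrome b6f share alone passed (exact permutation p = 0.00154, adjusted p = 0.0108), with 2.88% ± 0.1001 in number 3, 2.61% ± 0.0992 in number 2 and 2.33% ± 0.204 in number 1. It was 2.90%, 2.97%, 2.89%, 2.91% and 2.71% in number 3 of pgn, mef37-1, at3g50420, at5g10690 and Col-0, against 2.72%, 2.51%, 2.69%, 2.63% and 2.51% in number 2, so number 3 lay above number 2 in 5 of 5 lines. The photosystem I share was 8.88% ± 1.74 in number 3, 8.16% ± 0.540 in number 2 and 6.66% ± 1.04 in number 1 (exact permutation p = 0.0154, adjusted p = 0.0540). It was highest in at5g10690 number 3 (11.6%) and lowest in at3g50420 number 1 (4.94%). The share of the ATP synthase genes was 3.72% ± 0.544 in number 3, 4.30% ± 0.252 in number 2 and 3.33% ± 0.627 in number 1 (exact permutation p = 0.0826, adjusted p = 0.165). The shares of photosystem II, psbA, rbcL and the assembly genes had adjusted exact permutation p-values of 0.165 to 0.201. psbA and rbcL make up most of the denominator, so the share of every other gene moves with theirs: in Col-0 psbA took 57.5% of the plastid counts in number 3, against 42.3% in number 2, and rbcL 16.7% in number 3, against 26.6% in number 2.

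**Figure D5:**
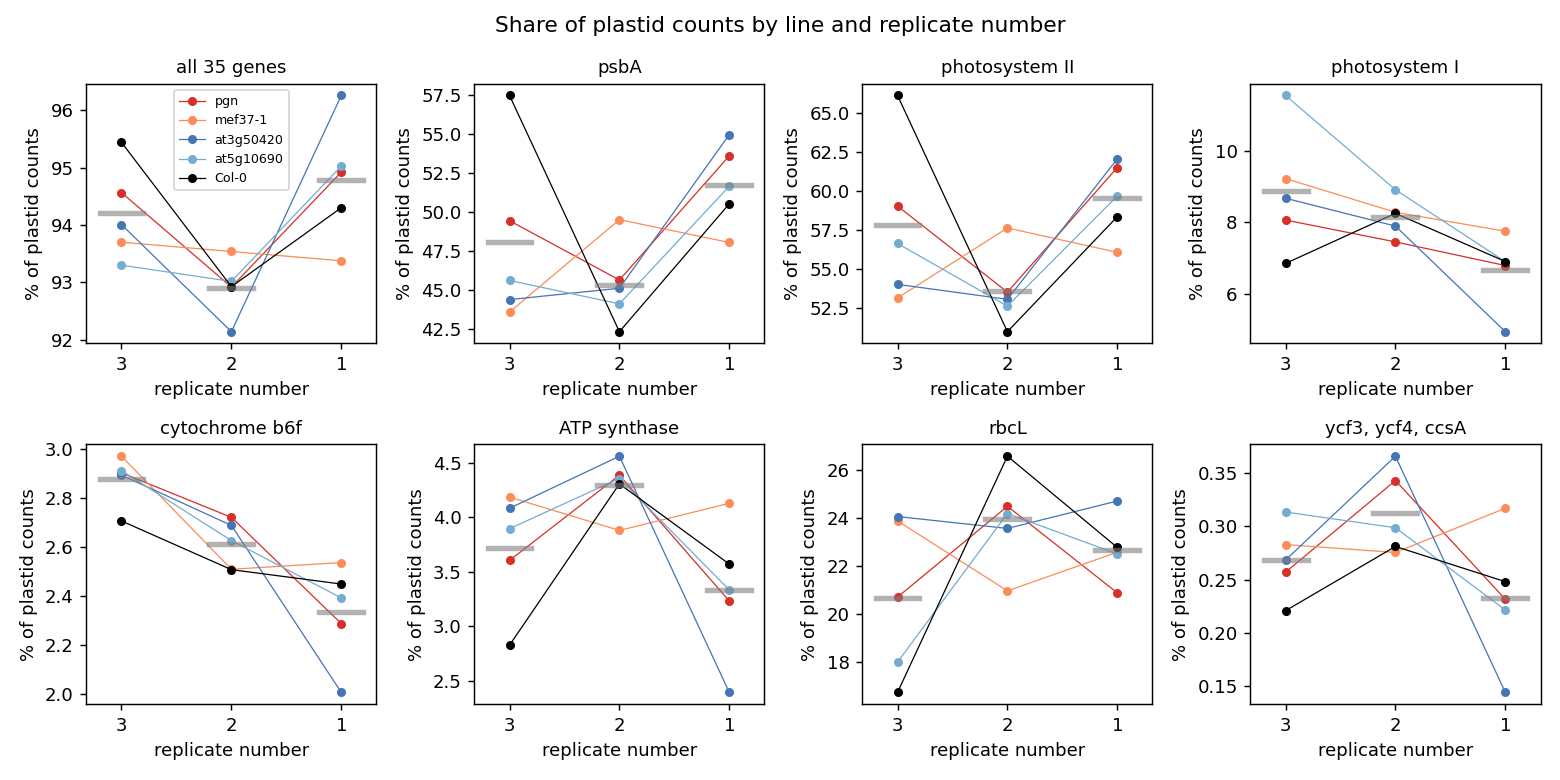
Percent of the counts on plastid genes taken by all 35 genes, by psbA and by the genes of each complex, in every library; columns are replicate numbers 3, 2 and 1, thin lines join the libraries of one line, and grey bars are means over 5 lines. The share of all 35 genes was lowest in number 2 (92.9%), and the cytochrome b6f share was 2.88% in number 3, 2.61% in number 2 and 2.33% in number 1.

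Some counts can hold reads of other copies of the sequence, since reads with several best positions were counted at each. Of all stretches of 75 bases in rbcL, 7.39% are also present in the mitochondrial genome and 4.32% in the nuclear genome of the reference, and in ccsA 4.60% are present in the nuclear genome. In psbA and psaA the shares were at most 1.01%, and the other 31 genes had no such stretch. An intron is present in 4 of the 35 genes (atpF, petB, petD and ycf3), and as the authors allowed no spliced alignments, reads across their exon junctions could not be placed in the usual way; what this took from their levels was not tested.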

How the data were processed

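Counts of reads per gene were deposited for 15 libraries of rosette RNA, 3 for each of 5 lines; per the labels, ribosomal RNA was removed and strand was kept. Per the paper's methods the authors sequenced 75 nt single-end reads and mapped them with STAR without spliced alignments, keeping every best position. Per the file headers, featureCounts 1.5.0-p2 assigned reads to exons with strand taken into account, counted a read at each of its positions and left out reads that touch more than 1 gene; the values are not normalized. The headers and the methods name different releases of the TAIR10 annotation.

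The 35 genes, the lists of other genes and the tests were chosen with earlier results of these data known. Groups and replicate numbers were taken from the sample titles. In R 4.3.3, edgeR 4.0.16 (filterByExpr, TMM, quasi-likelihood test; threshold 0.05 after Benjamini-Hochberg adjustment over all genes tested) compared each line with Col-0 (3 against 3) and the replicate numbers in a fit of 15 libraries with line as a term, on all genes and on plastid genes alone. The SE of a log2 fold change was its absolute value divided by the square root of the F statistic of the quasi-likelihood test. Shares were tested by exact permutation, 2-sided for lines. Any of the 35 genes may be named; values per library are given for the highest gene per length of each complex, rbcL, ycf3, ycf4, ccsA, and the 2 highest and 2 lowest log2 fold changes of a comparison, a few of them by fold change alone. RPKM was computed from the counts, the exon length and the library total, and divided by the TMM factor for comparisons. The scripts were tested on simulated data.

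Each pair of libraries of a line differed by 22.8 to 122 times the sampling variance over genes with at least 10 counts, so no pair was a repeat of 1 library. Deviations of same-numbered libraries from their line means correlated at 0.270 to 0.749 over the genes tested. This held in all 12 pairs of an insertion line with Col-0, with a mean of 0.548. Libraries of different numbers correlated at -0.682 to 0.359 (mean -0.271), and taking deviations from line means pushes these values below 0. The 2 ranges overlap, so over these genes pairing by number was shown on average and not for every pair. Over the plastid photosynthesis genes alone, the correlations of same-numbered libraries ran from -0.22 (at3g50420 number 1) to 0.79 (pgn number 3). They were also negative in pgn number 1 (-0.03) and at3g50420 number 3 (-0.14), and positive in the other pairs. Libraries of different numbers reached 0.59 (pgn number 2 with Col-0 number 1). Pairing by number was therefore not shown in every line for the photosynthesis genes. No label says what the numbers stand for. Alternatives were another normalization, DESeq2 1.42.0, no filter, a threshold of 0.01, the replicate block, 1 fit of all libraries, other denominators, another gene length and leaving out each library or line. Protein sequences were not used here.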

Additional observations from a re-analysis of the deposited data

Results flagged for a closer look

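In each replicate number, the 5 libraries (1 per line) were searched for a value far from the other 4, over 129 sets of values, 24 of them shares of plastid counts and the rest levels per length of the 35 genes. In 9 sets a library stood apart, all of them levels per length. Chance alone gives about 1 in 20, and 9 of 129 sets is near that rate. The genes of one library are not independent of each other, so the sets are not separate trials. The values below are therefore a description and are not set apart from chance. All values below are RPKM before TMM scaling. In at3g50420 number 1, the library with the lowest TMM factor, ccsA was lowest at 276 (next 423), petB lowest at 7548 (next 9050), psaB lowest at 5647 (next 8499) and rbcL highest at 111685 (next 96105). In at5g10690 number 3, the library with the highest TMM factor, psbD was highest at 8810 (next 6560) and psbM lowest at 6497 (next 8739). In at5g10690 number 1 petL was highest at 6274 (next 4909). In pgn number 2 petN was highest at 13081 (next 12322) and psbH lowest at 8559 (next 10110).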

How the results depend on the processing

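In the 4 comparisons of lines, 0 of the 35 genes were called under every alternative run. These runs included the replicate block and leaving out each library in turn. With the block, 2 genes in pgn (ycf4 and petG) and 1 in mef37-1 (ycf4) had an unadjusted p under 0.05 (edgeR). Of all genes tested with the block, 1239 of 17521 in pgn and 638 of 17561 in mef37-1 had such a p. Between numbers, DESeq2 called 7 genes in 2 against 1 and 5 in 3 against 1 where edgeR called 0, and dropping the line term gave 1 in 3 against 1. In 3 against 2 the count of 11 was 1 at a threshold of 0.01 and 7 without the filter; without each library or line it was 1 to 12, and 0 to 3 in 3 against 1. With plastid genes alone and no TMM factors, the counts were 7 in 3 against 1 and 2 in 3 against 2; without each library they were 0 to 2 in 2 against 1, 0 to 3 in 3 against 1 and 7 to 18 in 3 against 2. Over all genes the count in 2 against 1 was 444, and 1170 with DESeq2, 840 without the line term and 0 at 0.01; in 3 against 2 it was 5884, and 3411 at 0.01; in 3 against 1 it was 6064, and 3176 at 0.01. The difference in the share of plastid counts was small enough to change sign: against all counts it was 0.0372 percentage points in pgn, 0.51 in at3g50420 and 0.36 in at5g10690, and without psbA 0.37 in at3g50420. Without each library it ran from -0.74 to 0.52 in pgn, -1.33 to -0.07 in mef37-1, -1.15 to 0.91 in at3g50420 and -1.09 to 0.17 in at5g10690. The largest difference between the means of the numbers was 2.12 against all counts (exact permutation p = 0.366) and 1.31 to 2.38 without each line. The causes were not tested. The lowest count of any of the 35 genes in a library was 7139, and the part of depth was not tested.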

Other observations

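psbN, which lies between psbT and psbH on the opposite strand and whose product acts in photosystem II assembly, was not among the 35 genes. It had log2 fold changes of 0.25 (SE 0.30) in number 3 against 2 over all genes and of 0.81 (SE 0.35, adjusted p = 0.0759 from edgeR) with plastid genes alone, and was called in neither.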
